A study of Oryctolagus cuniculus with 34 samples.

Results

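UCHL1 (ENSOCUG00000001353) and ASB10 (ENSOCUG00000000242) are 2 of the 23669 genes in a count table of rabbit supraspinatus muscle after rotator cuff repair, and both belong to the machinery that adds ubiquitin to proteins or takes it off. They were chosen by their own read counts, from the difference between the repaired left and the right shoulder of the same rabbit, and earlier results of these data had named both for their low level at 2 weeks. The values of 2 weeks are therefore given as a description, with no test of repair against control. The values of 1, 4 and 8 weeks come from other rabbits, but the rule reads left against right at these times too, so the p-values given there set a difference against the spread between rabbits and are not independent support.

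The animals were skeletally mature female New Zealand White rabbits. In each, the left supraspinatus tendon was cut, left detached for 8 weeks and then repaired, and muscle of both shoulders was taken 1, 2, 4 or 8 weeks after repair. The repair groups hold 4, 5, 4 and 3 libraries and the control groups 4, 5, 4 and 4, in that order of time, and the 2 shoulders of a rabbit form a pair. The study's methods describe the right shoulder as unoperated, whereas the labels speak of a sham cut of the skin. The repair library of rabbit 3 at 8 weeks, which the study also left out, is outside the groups and enters only where it is named. Muscle came from the posterior lateral region of the supraspinatus only, and both shoulders are of the same animal. There was no group with a detached tendon and no repair, so tenotomy and repair cannot be told apart.

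Ubiquitin is a small protein that is attached to other proteins, often marking them for the proteasome. UCHL1, ubiquitin C-terminal hydrolase L1, is a deubiquitinase that trims ubiquitin from small adducts and helps to keep a pool of free ubiquitin. It is abundant in neurons, where it serves as a nerve marker, and it is also found in muscle fibres. ASB10 has ankyrin repeats and a SOCS box, the motif by which proteins of its family dock onto elongins and a cullin and present substrates to a cullin-RING ubiquitin ligase. The ubiquitin-proteasome system is the main route by which muscle fibres degrade contractile proteins during atrophy.

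The libraries compared, 33 in number, held 9220035 to 28395188 counts on genes, with a median of 19343431 in the 15 libraries of the series that holds 1 and 8 weeks and of 10625163 in the 18 of the series that holds 2 and 4 weeks. Differences between 1 or 8 weeks and 2 or 4 weeks thus cannot be told apart from differences between these library series. Levels are in CPM, a count relative to the total of its library, scaled by the trimmed mean of M values (TMM), which sets most genes of a library to a common level. UCHL1 had expected counts of 85.16 to 1788.55 over the 34 libraries of the table, and ASB10 had 69 to 867, and both passed the minimum of 1 CPM in every library. The counts of ASB10 were whole numbers in 34 of 34 libraries and those of UCHL1 in 10 of 34. RSEM gives a fraction where a read fits more than 1 place and is shared out, so a part of the UCHL1 counts is an estimate. The table holds no gene lengths, so levels of the 2 genes were not compared with each other. In bulk muscle, fewer cells of a type and less RNA per cell cannot be told apart.

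ASB10 was lower in the repaired shoulder of all 16 rabbits with both libraries in the groups compared. In rabbit 3, whose repair library was left out, it was higher on the left (47.2 against 31.3 CPM by plain totals). At 1 week the 4 control libraries held 33.4, 28.4, 32.4 and 32.1 CPM in rabbits 5, 6, 7 and 8, and the repair libraries of the same rabbits held 17.0, 10.2, 11.4 and 23.0 CPM. Every repair library lay below every control library, as for 13.3% of the 12937 genes tested, and the left was below the right in each rabbit, as for 23.7%. The mean was 15.4 ± 5.87 CPM (SD, n = 4) after repair and 31.6 ± 2.21 CPM (SD, n = 4) in controls. In the limma-voom fit across all genes, ASB10 fell at 1 week to 46.1% of control (log2FC −1.12, SE 0.29, adjusted p = 0.0147), where 13.7% of genes were called in either direction and 6.88% were called lower. The call was lost without the repair library of rabbit 6 (log2FC −0.94, adjusted p = 0.0566) or of rabbit 7 (log2FC −0.99, adjusted p = 0.0558), and with the left-out library of rabbit 3 added (log2FC −1.11, adjusted p = 0.0991).

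At 2 weeks, the time for which the genes were named, ASB10 in control muscle was 28.9, 27.7, 40.9, 23.0 and 29.3 CPM in rabbits 59, 60, 61, 62 and 64, and after repair it was 4.38, 15.2, 16.3, 10.5 and 17.0 CPM. The repair library of rabbit 59 was the lowest of all 33 libraries for this gene, and the groups did not overlap. The log2FC was −1.43 (SE 0.29), from 30.0 ± 6.60 CPM (SD, n = 5) in controls to 12.7 ± 5.28 CPM (SD, n = 5). At this time 15.9% of genes were called in either direction and 7.92% lower, 3.73% had repair libraries all below control libraries, and 13.4% were lower on the left in every rabbit. Since the genes were picked on these values, nothing is read from those shares.

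At 4 weeks, in rabbits 63, 66, 67 and 68, control ASB10 was 24.5, 55.3, 51.96 and 30.3 CPM, and repair ASB10 was 13.3, 18.6, 16.7 and 19.0 CPM. The controls spread more widely than the repaired shoulders, with means of 40.5 ± 15.4 CPM and 16.9 ± 2.56 CPM (SD, n = 4 each), and again did not overlap with them, as for 3.93% of genes. The left was below the right in all 4 rabbits, as for 11.5% of genes. The log2FC was −1.18 (SE 0.30), or 44.004% of control, but the adjusted p of 0.0816 missed the threshold in the limma-voom fit, in which 0.124% of genes passed and 0.0464% passed as lower. With the rabbit as a fixed block the log2FC was −1.22 and passed (adjusted p = 0.0180), and with the rabbit as a random block it was −1.19 (adjusted p = 0.0301). The edgeR quasi-likelihood test gave −1.26 (adjusted p = 0.0229), and without the repair library of rabbit 59, a library of another time point, the fit gave −1.18 (adjusted p = 0.0153). The fixed block called 364 genes in either direction and edgeR 327, against 16 in the fit reported. ASB10 passed in 6 of 12 other settings and in 3 of 33 fits with 1 library left out. It did not pass in limma-voom with plain library totals (−0.91, adjusted p = 0.117) or with the libraries of 4 weeks alone (−1.19, adjusted p = 0.170).

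At 8 weeks the control libraries of rabbits 1, 2, 3 and 4 held 30.6, 44.6, 34.8 and 32.7 CPM of ASB10, and the repair libraries of rabbits 1, 2 and 4 held 21.9, 20.8 and 18.7 CPM. The groups did not overlap, as for 3.32% of genes, and the left was lower in all 3 rabbits, as for 13.8%. Both hold only without the repair library of rabbit 3. With TMM scaling over all 34 libraries it held 93.1 CPM, where the highest control of this time held 43.5 CPM. The mean was 20.5 ± 1.61 CPM (SD, n = 3) after repair against 35.7 ± 6.19 CPM (SD, n = 4). The log2FC of −0.79 (SE 0.31, 95% interval −1.44 to −0.15) did not pass over all genes (limma-voom adjusted p = 0.999, unadjusted p = 0.0172), where 0.00773% of genes, 1 in number, passed in either direction, 0.00773% as higher and 0% as lower. At an unadjusted p under 0.05 there were 397 genes at this time, and edgeR called 1 and DESeq2 5 in either direction. With the repair library of rabbit 3 added, the log2FC of ASB10 was −0.33 (limma-voom unadjusted p = 0.394).

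UCHL1 was lower in the repaired shoulder of 14 of the 16 rabbits. At 1 week its control libraries held 48.8, 29.8, 36.5 and 37.2 CPM in rabbits 5, 6, 7 and 8, and its repair libraries held 89.3, 9.20, 23.4 and 39.6 CPM. The repaired shoulders ran from far below to far above the controls, rabbit 5 standing at 183% of its right shoulder and rabbit 8 at 107%. The mean was 40.4 ± 34.9 CPM after repair and 38.1 ± 7.89 CPM in controls (SD, n = 4 each). The log2FC of −0.33 (SE 0.41, 95% interval −1.18 to 0.52, limma-voom adjusted p = 0.5996) did not pass, and it turned to 0.08 with edgeR, with DESeq2 and with plain library totals, and to 0.23 without the repair library of rabbit 6. Without the repair library of rabbit 5 it was −0.88.

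At 2 weeks, again a description, control UCHL1 was 49.8, 57.1, 40.002, 41.9 and 47.8 CPM in rabbits 59, 60, 61, 62 and 64, and repair UCHL1 was 5.40, 25.9, 18.7, 22.5 and 19.7 CPM. All 5 rabbits were lower on the left, rabbit 59 most of all at 10.9% of its right shoulder. The log2FC was −1.56 (SE 0.39), from 47.3 ± 6.78 CPM to 18.4 ± 7.80 CPM (SD, n = 5 each).

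At 4 weeks, UCHL1 in rabbits 63, 66, 67 and 68 was 55.1, 74.0, 48.2 and 45.3 CPM on the right and 30.1, 32.6, 24.9 and 24.9 CPM on the left. The 4 left shoulders stood at 44.1% to 55.0% of their own right shoulder, and the groups did not overlap, as for 3.93% of genes. The mean was 28.1 ± 3.87 CPM after repair and 55.6 ± 12.9 CPM in controls (SD, n = 4 each). The log2FC of −0.97 (SE 0.42, 95% interval −1.82 to −0.11) had an unadjusted p of 0.0278 and did not pass over all genes (limma-voom adjusted p = 0.258).

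At 8 weeks, UCHL1 was 45.5, 49.9, 43.5 and 49.1 CPM in the controls of rabbits 1, 2, 3 and 4, and 37.5, 37.5 and 24.8 CPM in the repaired shoulders of rabbits 1, 2 and 4. Every repaired shoulder lay below every control, as for 3.32% of genes, with means of 33.2 ± 7.34 CPM (SD, n = 3) and 47.01 ± 3.03 CPM (SD, n = 4). The log2FC of −0.52 (SE 0.45, 95% interval −1.44 to 0.40, limma-voom adjusted p = 0.999) did not pass. Without the repair library of rabbit 3, both genes were therefore without overlap at 4 and at 8 weeks, which held for 0.672% of genes. ASB10 was so at 1, 4 and 8 weeks, which held for 0.441%.

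**Figure D1:**
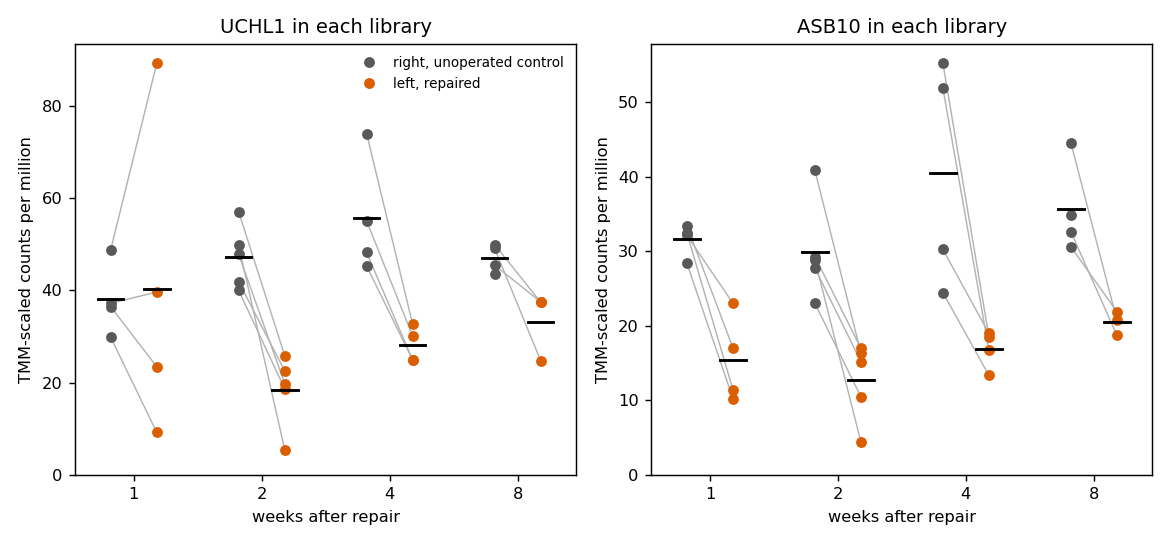
TMM-scaled CPM of UCHL1 and ASB10 (vertical axes, from 0) in each library by weeks after repair (horizontal axes), for control and repair shoulders. The ASB10 repair libraries lie below the controls at every time, whereas 1 UCHL1 repair library at 1 week, that of rabbit 5 at 89.3 CPM, lies above all others.

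Over all times, the order of ASB10 group means from the lowest was repair at 2, 1, 4 and 8 weeks (12.7, 15.4, 16.9 and 20.5 CPM), then control at 2, 1, 8 and 4 weeks (30.0, 31.6, 35.7 and 40.5 CPM). Neighbours in this order differed by less than the larger of their SDs, except repair at 4 and 8 weeks and repair at 8 weeks and control at 2 weeks. Of the repair libraries, 15 of 16 lay below the lowest control library, 23.0 CPM, and the other held 23.03 CPM. For UCHL1 the order was repair at 2, 4 and 8 weeks (18.4, 28.1 and 33.2 CPM), control at 1 week (38.1 CPM), repair at 1 week (40.4 CPM) and control at 8, 2 and 4 weeks (47.01, 47.3 and 55.6 CPM). Repair at 2 and 4 weeks differed by more than either SD, and the other neighbours by less than the larger SD. Of the UCHL1 repair libraries, 10 of 16 lay below the lowest control library, 29.8 CPM. Both counts pool the libraries of 2 weeks, the time for which the genes were named. The same count was not made for the other genes, so nothing is read from either.

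**Figure D2:**
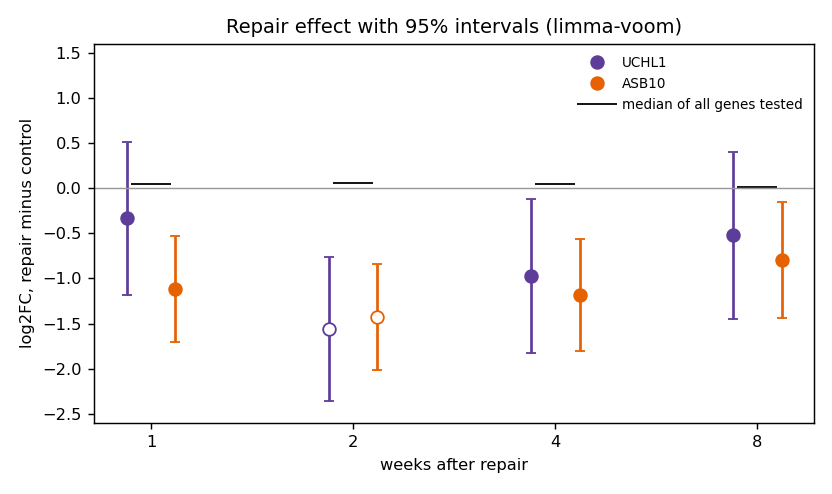
The log2FC of repair minus control (vertical axis) with 95% intervals from limma-voom, by weeks after repair, for UCHL1 and ASB10. The ASB10 intervals lie below 0 at 1, 4 and 8 weeks, and the UCHL1 intervals of 1 and 8 weeks cross 0.

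The difference of the repair effect between 8 weeks and 1 week, both of the same library series, did not pass for either gene. It was 0.32 on the log2 scale for ASB10 (SE 0.43, 95% interval −0.55 to 1.20, limma-voom adjusted p = 0.872) and −0.19 for UCHL1 (SE 0.61, 95% interval −1.44 to 1.06, adjusted p = 0.947). No gene passed for this difference in limma-voom (0% of 12937, with 683 at an unadjusted p under 0.05), while edgeR called 0 and DESeq2 3. These intervals leave room for changes between the times of over 1 log2 unit in either gene.

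The shoulders were also compared in pairs over the 11 rabbits of 1, 4 and 8 weeks, without those of 2 weeks. Within a rabbit, the log2 ratio of left to right ASB10, with 0.5 CPM added, averaged −1.03 (SD 0.43, n = 11, 95% interval −1.32 to −0.73), and it was below 0 in 11 of 11, as for 2.39% of genes. The exact two-sided sign-flip permutation test gave p = 0.000977, the smallest it can give with 11 rabbits, and an adjusted p of 0.0148 over all genes, where 12.6% of genes passed as lower. For UCHL1 the mean was −0.62 (SD 0.68, n = 11, 95% interval −1.04 to −0.16), with 9 of 11 rabbits below 0, as for at least that many in 18.6% of genes. Its exact p was 0.0176, a level that 19.5% of genes reached as lower, and its adjusted p of 0.0552 did not pass.

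Within the series of 1 and 8 weeks, the mean ASB10 ratio of 7 rabbits was −0.95 (exact permutation p = 0.0156, the smallest possible) and the mean UCHL1 ratio −0.42 (exact permutation p = 0.203). At 4 weeks alone, where 4 rabbits allow no exact p below 0.125, the means were −1.17 for ASB10 and −0.96 for UCHL1. With plain library totals in place of TMM, the UCHL1 mean over 11 rabbits was −0.35 (exact permutation p = 0.107), on a scale where the median log2FC of all genes moved to 0.47 at 1 week. Without rabbit 5, an alternative chosen after its value was seen, the UCHL1 mean was −0.77 (exact permutation p = 0.00391, n = 10).

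ASB10 stood lower against its right shoulder than UCHL1 did in these rabbits. The ratio of UCHL1 exceeded that of ASB10 by 0.41 on the log2 scale (SD 0.60, n = 11, exact permutation p = 0.0371), and ASB10 had the lower ratio in 7 of 11. The difference did not pass without rabbit 5 (0.27, exact permutation p = 0.0742), nor without any one of rabbits 2, 7, 8, 66 or 67 (0.37 to 0.42), nor in the 7 rabbits of 1 and 8 weeks (0.53, exact permutation p = 0.0938), nor with rabbit 3 added (0.26, exact permutation p = 0.295). The difference thus depends on which rabbits enter.

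The ratios of the 2 genes were not shown to move together over these rabbits. Pearson's r was 0.472 (permutation p = 0.142) and Spearman's rho 0.509 (permutation p = 0.114) over 11 rabbits, both with an adjusted p of 0.142 over the 2 coefficients. In the 7 rabbits of 1 and 8 weeks r was 0.469 (exact permutation p = 0.302) and rho 0.536 (exact permutation p = 0.236), and the 4 rabbits of 4 weeks were too few for a coefficient. Without the 2 rabbits farthest from the median UCHL1 ratio, 5 and 8, r was 0.4998 (permutation p = 0.174).

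**Figure D3:**
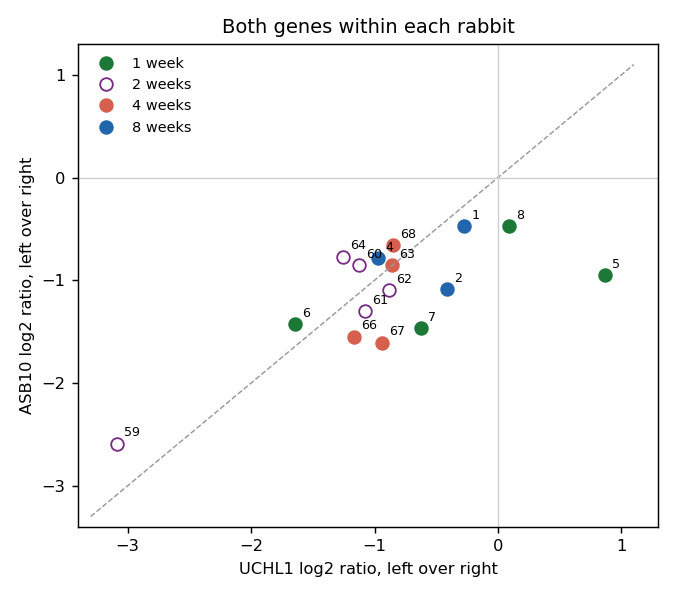
Within-rabbit log2 ratios of left to right for UCHL1 and ASB10, each point a rabbit, with the dashed line where both ratios are equal. Rabbit 59 (2 weeks) is the lowest for both genes and rabbit 5 (1 week) has the highest UCHL1 ratio, 0.86, beside an ASB10 ratio of −0.95.

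Other deubiquitinases were read from a list of 61, of which 21 had a symbol matched in the table and were tested. The list also held MPN domain subunits of the proteasome lid and the COP9 signalosome, not all of which take off ubiquitin. None of the 21 passed at 1, 4 or 8 weeks (limma-voom, adjusted p under 0.05). At 2 weeks 4 passed as lower and none as higher, where 7.92% of all genes were called lower and 7.95% higher. The median log2FC of the 21 was −0.19, −0.29, −0.09 and −0.00 at 1, 2, 4 and 8 weeks, beside 0.05, 0.06, 0.05 and 0.01 for all genes tested. The 4 were PSMD14 (log2FC −0.94, adjusted p = 0.00360) and PSMD7 (−0.58, adjusted p = 0.0171), subunits of the proteasome lid, COPS5 (−0.57, adjusted p = 0.0315), a subunit of the COP9 signalosome that takes NEDD8 off cullins, and STAMBP (−0.39, adjusted p = 0.0236), which acts on ubiquitin chains at endosomes. All 4 carry an MPN domain, a grouping seen after their values. Without both libraries of rabbit 59, an alternative added after seeing the data, 1 of the 4 passed at 2 weeks, PSMD14 (−0.73, adjusted p = 0.0341), where 0.352% of 12501 genes were called higher and 0.536% lower. In the same fit 1 member passed as higher and 3 as lower at 1 week, where 15.7% of genes were called higher and 13.4% lower.

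The deubiquitinase nearest to passing at 1 week was USP7 (log2FC −0.44, adjusted p = 0.0532), a protease with many nuclear targets, and at 4 weeks STAMBP (−0.30, adjusted p = 0.253). UCHL1 at −0.97 lay below the lowest of the 21 at 4 weeks, JOSD1 at −0.52, and at 8 weeks, at −0.52, below USP46 at −0.27, whereas at 1 week it lay within their range. These are positions among the values of 1 fit and were not tested. With plain library totals 5 members were called higher and none lower at 1 week, where 29.8% of all genes were called higher and 1.8% lower, and 1 higher and 2 lower at 2 weeks, where 5.35% were called higher and 1.75% lower. Median-ratio size factors gave the same counts as TMM, with none called at 1 week and 4 lower at 2 weeks. The counts of this list thus hold for these 2 scalings and not for plain library totals.

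Genes of cullin-RING ligases, the ligase class to which ASB10 is assigned by its SOCS box, were read from a list of 61, of which 29 were matched and tested. At 1 week 2 passed as higher and 2 as lower, where 6.81% of all genes were called higher and 6.88% lower. The 2 higher were CUL7, a cullin scaffold (log2FC 0.82, adjusted p = 0.0248), and FBXW10, an F-box protein (1.07, adjusted p = 0.0276). The 2 lower were KLHL21, a substrate adaptor of cullin 3 (−0.96, adjusted p = 0.0184), and DCUN1D2, which promotes the attachment of NEDD8 to cullins (−1.41, adjusted p = 0.0317).

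At 2 weeks, where 7.95% of all genes were called higher and 7.92% lower, 3 of the 29 passed in each direction. KLHL11 (1.25, adjusted p = 0.0235), CUL7 (0.72, adjusted p = 0.0280) and WSB1, itself a SOCS box protein (0.80, adjusted p = 0.0427), were higher. NEDD8, the ubiquitin-like protein that activates cullins (−0.44, adjusted p = 0.0193), KLHL21 (−0.71, adjusted p = 0.0400) and SKP1, the adaptor of F-box ligases (−0.48, adjusted p = 0.0468), were lower. None passed at 4 weeks, where 0.0773% of genes were called higher and NEDD8 was nearest (−0.36, adjusted p = 0.184), or at 8 weeks, and the medians were 0.04, 0.15, 0.03 and 0.02.

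Without both libraries of rabbit 59, no cullin-RING gene passed at 2 weeks, and 3 passed as higher and 2 as lower at 1 week, beside 0.352% and 0.536% of all genes called higher and lower at 2 weeks and 15.7% and 13.4% at 1 week. With plain library totals the counts were 12 higher and 2 lower at 1 week and 2 higher and none lower at 2 weeks, beside 29.8% and 1.8% of all genes at 1 week and 5.35% and 1.75% at 2 weeks. ASB10 at −1.18 and −0.79 lay below the lowest of the 29 at 4 and 8 weeks, DCUN1D2 at −0.63 and −0.43, and above DCUN1D2 at 1 week. The other ASB proteins, cullin 5, the elongins and the muscle ligases FBXO32 and TRIM63 were not analysed here.

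**Figure D4:**
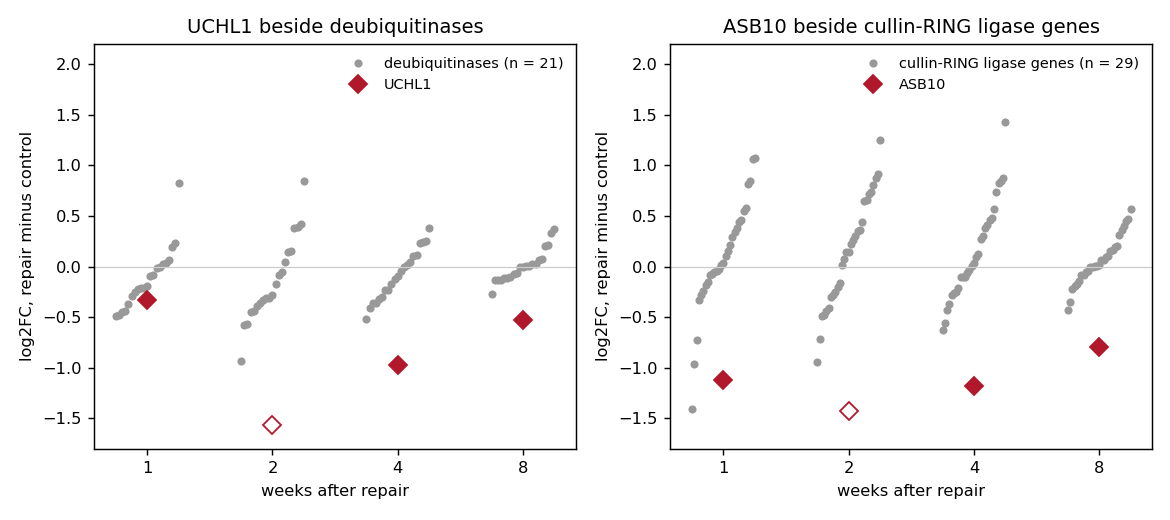
The log2FC of repair minus control (vertical axes) by weeks after repair for the 21 genes of the deubiquitinase list beside UCHL1 and for the 29 cullin-RING ligase genes beside ASB10. Diamonds are the 2 genes, open at 2 weeks, the time for which they were named, and at 4 and 8 weeks both lie below all the grey points.

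Other genes of muscle fibres were set beside the 2 genes. Of 42 fibre genes listed, 16 were matched and tested, and all 16 had counts in every library. At 1 week MYOM2, an M-band protein (log2FC −1.67, adjusted p = 0.0198), and SYNM, an intermediate filament protein (−1.02, adjusted p = 0.0485), passed as lower, and at 2 weeks DES, the filament protein desmin (−0.84, adjusted p = 0.0219), did, with none at 4 or 8 weeks and none higher, where 6.88% of all genes were called lower at 1 week and 7.92% at 2 weeks. The median log2FC of the 16 was −0.45, −0.44, −0.34 and −0.04 at 1, 2, 4 and 8 weeks. With plain library totals 2 of the 16 passed as higher and 1 as lower at 1 week and 1 as lower at 2 weeks, with medians of −0.03, −0.23, −0.07 and 0.03. Without both libraries of rabbit 59 the counts were 2 lower at 1 week and none at 2 weeks, where 13.4% and 0.536% of all genes were called lower.

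The summed CPM of the 16 fibre genes ranged from 11145 to 60814 over the repair libraries and from 54143 to 69676 over the controls at 1 week, and from 33253 to 59103 and 41332 to 102368 at 4 weeks. A few genes dominated it. In controls at 1 week, where the median sum was 58777 CPM, the means of ATP2A1, PYGM and TNNT3 were 26577.5, 10458 and 8410 CPM. The means of DES, MYOM2 and SYNM were 4244, 3304 and 801 CPM, so the sum says little of these. Within rabbits, the left sum was 19.5% to 143% of the right sum. It was over 100% in 4 rabbits, numbered 60, 63, 68 and 1, and in all 4 of them both UCHL1 and ASB10 were below 100%. Since ASB10 was below 100% in all 16 rabbits and UCHL1 in 14 of 16, nothing is read from this. ASB10 stood lower than the fibre sum, as a share of the right shoulder, in 13 of 16 rabbits and UCHL1 in 10 of 16. In rabbit 6, where the fibre sum was 19.5%, UCHL1 was 30.9% and ASB10 36.0%. The part of fibre content in either gene's difference was not tested.

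**Figure D5:**
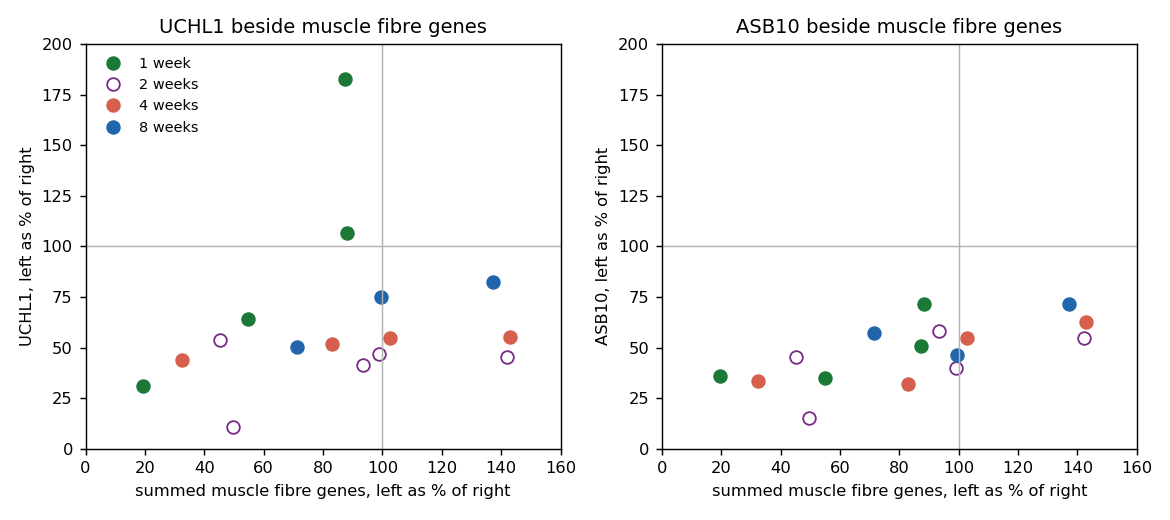
The level in the left shoulder as a percentage of the right (vertical axes) for UCHL1 and ASB10 against that of the summed fibre genes (horizontal axes), each point a rabbit. ASB10 lies below 100% in all 16 rabbits and UCHL1 in 14 of 16, including the 4 whose fibre sum exceeded 100%.

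UCHL1 is also a marker of nerve, so 33 nerve and neuromuscular junction genes were listed, of which only L1CAM, LRP4 and STMN1 were matched and tested, and the neurofilament and myelin genes were not analysed here. At 2 weeks L1CAM, an adhesion protein of axons, passed as higher (log2FC 1.71, adjusted p = 0.0179). Its level was low, with means of 0.73 ± 0.39 CPM in controls and 2.33 ± 0.92 CPM after repair (SD). STMN1 (0.85, adjusted p = 0.232) and LRP4, a receptor at the junction (−0.66, adjusted p = 0.183), did not pass at 2 weeks. None of the 3 passed at 1, 4 or 8 weeks or without both libraries of rabbit 59. With 3 genes, the content of nerve in these libraries was not determined. The 3 summed to 45.6% to 205% of the right shoulder over the 16 rabbits. This sum mainly follows LRP4, whose mean in controls at 1 week was 43.7 CPM, beside 1.77 CPM for L1CAM and 2.90 CPM for STMN1. At all 4 times the log2FC of LRP4 was below 0 and those of L1CAM and STMN1 were above 0.

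Genes of fat, stroma, leukocytes and vessels were read from a list of 25, of which 15 were matched and tested. As higher, 3, 4, 1 and 0 passed at 1, 2, 4 and 8 weeks, where 6.81%, 7.95%, 0.0773% and 0.00773% of all genes were called higher, and none passed as lower. The leukocyte genes CD163, CSF1R, ITGAM and MRC1 did not pass at any of these times. Those that passed included ADIPOQ, the adipocyte hormone adiponectin, at 2 weeks (log2FC 1.43, adjusted p = 0.0149), LIPE, hormone-sensitive lipase, at 1 week (1.90, adjusted p = 0.0287), and CD36, a fatty acid transporter, at 4 weeks (1.41, adjusted p = 0.0135). The others in limma-voom at 1 week were ADIPOQ (1.51, adjusted p = 0.0338) and LOX (2.72, adjusted p = 0.0488). At 2 weeks they were COL1A1 (2.80, adjusted p = 0.0331), PDGFRA (1.68, adjusted p = 0.0467) and VWF (0.84, adjusted p = 0.0418). Without both libraries of rabbit 59 the counts were 6, 0, 3 and 0, beside 15.7%, 0.352%, 1.3% and 0% of all genes called higher and 13.4%, 0.536%, 1.2% and 0% called lower. With plain library totals they were 6, 1, 1 and 0, beside 29.8%, 5.35%, 0.0696% and 0.00773% called higher. In the left library of rabbit 59, the lowest for both UCHL1 and ASB10, these 15 genes summed to 45262 CPM, or 2911% of the right, against 91.3% to 1190% in the other rabbits. Its part in the levels of UCHL1 and ASB10 was not tested. In the other 4 rabbits of 2 weeks UCHL1 stood at 41.3% to 53.8% of the right shoulder and ASB10 at 39.95% to 58.0%.

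The genes most like each of the 2 were taken from 2757 genes with a symbol, by Pearson's r between their within-rabbit log2 ratios over 16 rabbits. These are descriptions over points that share libraries and depth. For UCHL1 they were DENND5B (r = 0.896), ATIC (0.851), CLTCL1 (0.851), AKIRIN2 (0.850) and PSTPIP2 (0.847), with r of 0.614, 0.284, 0.717, 0.760 and 0.646 over log2 CPM in 33 libraries. For ASB10 they were AL133353.2 (0.887), SLC16A10 (0.886), TIMM23B-AGAP6 (0.873), FAHD2A (0.867) and MRPL11 (0.864), with 0.786, 0.476, 0.858, 0.682 and 0.627 over libraries. The 95th percentile over all genes compared was 0.636 for UCHL1 and 0.714 for ASB10, with medians of −0.0962 and −0.0992. The 2 genes themselves had r = 0.703 over the 16 rabbits, which include the 5 of 2 weeks, ranking ASB10 at 68 for UCHL1 and UCHL1 at 158 for ASB10.

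The left-out repair library of rabbit 3 held 47.2 CPM of ASB10 by plain totals against 31.3 CPM in its right shoulder, and 21.6 CPM of UCHL1 against 39.2 CPM. With TMM scaling over all 34 libraries it held 93.1 CPM of ASB10 against 34.2 CPM, and 42.6 CPM of UCHL1 against 42.7 CPM. The lower UCHL1 of this library was thus seen with plain totals only. It is the only left shoulder of the 17 rabbits with ASB10 above its right.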

How the data were processed

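RNA of supraspinatus muscle from both shoulders of 17 rabbits gave 34 libraries. The authors deposited expected counts per gene, not scaled, which they made by aligning reads with STAR to the Ensembl rabbit genome and counting with RSEM. Groups came from the labels; in the time code, the first digit was taken for the weeks of tenotomy and the next for those after repair. A gene entered where any library had more than 1 CPM. After TMM scaling, limma-voom was fitted on 33 libraries with 1 coefficient for each group of treatment and time and Benjamini-Hochberg adjustment over the 12937 genes tested (limma 3.58.1, edgeR 4.0.16, R 4.3.3). Calls are at an adjusted p under 0.05. Within-rabbit log2 ratios, with 0.5 CPM added, were tested by exact sign-flip permutation. Correlations were tested by permutation with 100000 resamples or, for the 7 rabbits of 1 and 8 weeks, exactly (SciPy 1.17.1). Expected counts were rounded for edgeR quasi-likelihood and DESeq2 1.42.0. The fit was tested on simulated data.

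Libraries of one rabbit come from the same animal and so are paired. The deviations from group means correlated within rabbits by −0.00 to 0.47 (median 0.28), and 14 of 16 repair libraries were nearest to the control of their own rabbit. Human symbols, for 3349 genes tested, came from the names in the study's supplementary tables. UCHL1 and ASB10, the gene lists and the tests were chosen with earlier results of these data known. The named genes are the 2, the list members called or nearest to passing, and the 5 genes most alike to each by the ratio. Whether libraries come from separate animals is given by the rabbit number in the titles. Alternatives were size factors, filters, tools, rabbit blocks, quality weights, pseudocounts and leaving out each library or rabbit. Depth limits no value of the 2 genes, whose lowest expected count was 69.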

Additional observations from a re-analysis of the deposited data

Results flagged for a closer look

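Among the 5 rabbits of 2 weeks, the within-rabbit log2 ratio of UCHL1 in rabbit 59 (−3.09) stood apart from the others (−1.25 to −0.88). Its gap to the nearest rabbit was 0.831 of the whole range, above the 95% limit of Dixon's test for 5 samples. The genes were named for their level at this time, so the limit serves as a flag only and nothing is read from it. Of 20 groups of values tested this way it was the only one past the limit, and about 1 in 20 would pass by chance. The same rabbit had the lowest ASB10 ratio of the 5 (−2.59), with a gap of 0.710 of the range that did not exceed the limit.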

How the results depend on the processing

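Of 550 values recomputed under an alternative, 519 stayed the same, 9 passed where they had not, 13 no longer passed, 7 changed sign and 2 descriptive means moved by over 1 SD (43.005 CPM for UCHL1 in controls at 8 weeks and 28.9 CPM for ASB10 in controls at 1 week, both with plain totals). A tested value stayed the same if it kept its direction and its side of the threshold. The group means and the effects at 2 weeks have no threshold, and stayed the same if they moved by less than 1 SD. The log2FC of ASB10 at 1 week lost its call with all 34 libraries (−1.11) and ranged from −1.34 to −0.94 as each library was left out. At 4 weeks it passed in 6 of 12 other settings and in 3 of 33 fits with 1 library left out. The 6 were edgeR (−1.26), DESeq2 (−1.28), the rabbit as a fixed replicate block (−1.22) or a random block (−1.19), quality weights (−0.94) and without rabbit 59, an alternative added after seeing the data (−1.18). The log2FC of ASB10 at 4 weeks ranged from −1.40 to −1.01 as each library was left out. The block changed no other call. UCHL1 at 1 week changed sign with plain totals (0.0822), edgeR (0.0837) and DESeq2 (0.0831), and ranged from −0.88 to 0.23 over left-out libraries. The change from 1 to 8 weeks turned to −0.0083 for ASB10 with plain totals and ranged from −0.76 to 0.35 for UCHL1 over left-out libraries. By the unadjusted exact p, the UCHL1 mean ratio was under 0.05 as reported, though not adjusted over all genes, and over it with plain totals (−0.35) or in the series of 1 and 8 weeks (−0.42). The difference between the genes, also unadjusted, no longer passed in that series (0.53) or with rabbit 3 (0.26), and ranged from 0.27 to 0.48 over left-out rabbits. The cause of these changes was not tested. Genes called at 1, 4 and 8 weeks numbered 1771, 16 and 1 in the fit reported, 1567, 327 and 1 with edgeR, 2238, 675 and 5 with DESeq2, 3406, 364 and 1 with the fixed block, 4179, 1032 and 84 with quality weights and 2952, 0 and 1 with each time alone.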
